A study of Rattus norvegicus with 6 samples.

Results

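The mature miRNAs rno-miR-10a-5p, rno-miR-10a-3p, rno-miR-10b-5p, rno-miR-10b-3p, rno-miR-196a-5p and rno-miR-196b-5p, written below without the rat prefix, were followed in plasma exosomes because their genes lie inside the Hox clusters. They were taken by name from the deposited counts and are 6 of the 763 mature rat miRNAs in the table. Exosomes, small membrane vesicles that carry RNA, had been pelleted by ultracentrifugation from the plasma of young adult male Sprague-Dawley rats, anesthetized in both groups. RIPC rats had received remote ischemic pre-conditioning (RIPC), which was 4 cycles of 5 min ischemia and 5 min reperfusion of both hind limbs by elastic bands, and control rats had no RIPC. Blood was drawn 48 h later, and small RNA was sequenced from 3 RNA samples of control rats (C-exo) and 3 of RIPC rats (R-exo), to ask which exosomal miRNAs differ at the late phase of RIPC. No transgene or knockout is described for either group. The sources used here do not say whether a sample came from 1 rat or from several, so p-values measure the spread between these samples.

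The Hox clusters are the arrays of homeobox genes that set position along the head-to-tail axis of the embryo, and miR-10 and miR-196 are transcribed from within them. A miRNA guides repression of transcripts that pair with its seed, bases 2 to 8 from the 5′ end. miR-196 is known for repressing Hoxb8 and other Hox transcripts, and miR-10 for repressing Hoxd10 and for roles in endothelial cells, in angiogenic sprouting and the restraint of inflammatory signalling. Of the strands of a stem-loop, the guide is loaded into the silencing complex and the passenger is mostly degraded. For miR-10 the 5p strand is the usual guide.

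The mature sequences, from RefSeq on the rat assembly GRCr8, where all 6 members had an entry, are shown because they bear on how the members can be told apart. Seeds are in capitals.
miR-10a-5p: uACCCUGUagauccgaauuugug
miR-10b-5p: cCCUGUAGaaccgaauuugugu
miR-10a-3p: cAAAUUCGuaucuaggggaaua
miR-10b-3p: aCAGAUUCgauucuaggggaa
miR-196a-5p: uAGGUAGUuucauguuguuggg
miR-196b-5p: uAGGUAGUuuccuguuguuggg

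miR-196a-5p and miR-196b-5p share their seed and differ at 1 base, A12C, with the base of miR-196a-5p first and positions counted from its 5′ end. Over the 21 bases that they share, miR-10a-5p and miR-10b-5p also differ at 1 base, U12A, counted in the same way on miR-10a-5p. Their passenger strands differ at 3 bases (A3G, U9A and A10U, counted on miR-10a-3p). The RefSeq entry of miR-10b-5p starts 2 bases later than that of miR-10a-5p, so that the annotated seeds differ. With the 2 stem-loop bases before it, miR-10b-5p would read uACCCUGUagaaccgaauuugugu, with the seed of miR-10a-5p. The stem-loops show this offset, with the mature strands in capitals.
Mir10a: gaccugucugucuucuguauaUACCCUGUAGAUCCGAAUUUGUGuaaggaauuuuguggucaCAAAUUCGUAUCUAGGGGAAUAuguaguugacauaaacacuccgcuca
Mir10b: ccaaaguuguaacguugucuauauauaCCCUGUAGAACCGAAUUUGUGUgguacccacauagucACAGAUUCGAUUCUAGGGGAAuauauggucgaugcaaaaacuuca

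Counts carry no read starts, so which 5′ end the miR-10b-5p reads had was not tested. How reads with a mismatch at the distinguishing base were assigned is not given in the sources used here, and the values of each pair are uncertain to that extent.

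On GRCr8, Mir10a (chr10:81779709-81779818, plus strand) lies between Hoxb5 and Hoxb4 and overlaps no other gene of the RefSeq table. Mir10b (chr3:80035859-80035967, plus strand) lies within the span of Hoxd4. Mir196a (chr7:135988876-135988985, plus strand) lies between Hoxc10 and Hoxc9, and Mir196b (chr4:82661101-82661185, minus strand) between Hoxa9 and Hoxa10. The 6 members thus come from 4 stem-loops, 1 in each of the 4 Hox clusters. The submitters' processing notes name the build rn6, whereas the counts carry no coordinates and none were converted.

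Between 5484209 and 7531737 counts fell on miRNAs per library, and 3 counts, taken as the floor, equal 0.369 to 0.672 CPM. CPM expresses a count relative to its library after TMM, a scaling that trims the most changed miRNAs. C-exo replicate 3 stood apart from its group, and it was used as labelled. Over the 404 miRNAs that passed the filter on low counts, its Spearman's rho with C-exo replicates 1 and 2 was 0.902 and 0.931, while that with the R-exo libraries was 0.965 to 0.983, which is across miRNAs and not across replicates. It did not lie with R-exo for every miRNA, since miR-126a-3p had 111674 counts in it against 138159 to 227545 in R-exo, and miR-144-3p had 1345 against 2837 to 3286. Whether its label is right was not tested, and each group mean and fold change with this library carries that doubt. For the members, their ratios and the list medians, values without it are therefore given too. The labels give no batch or date for any library, so no comparison within batches could be made.

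Together the members took 0.517%, 0.785% and 2.81% of all counts of C-exo replicates 1, 2 and 3, and 1.06%, 1.75% and 2.19% of those of R-exo replicates 1, 2 and 3. The Wilson 95% intervals of the extremes, 0.512% to 0.524% and 2.80% to 2.83%, cover counting error within a library and not the spread between samples. No molecular identifiers are described, so reads copied from 1 molecule cannot be told apart and the intervals may be too narrow. Both the lowest and the highest share were thus in C-exo. Fewer vesicles that carry a miRNA and less of it per vesicle cannot be told apart in such libraries.

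Most of these counts were miR-10b-5p and miR-10a-5p. By count within a library, miR-10b-5p ranked 34, 31 and 19 of 763 in C-exo replicates 1, 2 and 3 and 34, 31 and 24 in R-exo replicates 1, 2 and 3. miR-10a-5p ranked 38, 28 and 28 in C-exo and 41, 34 and 31 in R-exo. In CPM over all 6 libraries, miR-10b-5p (8631) fell between miR-146a-5p (9240) and miR-29a-3p (8577), and miR-10a-5p (6369) between let-7a-5p (7086) and miR-27b-3p (6338). miR-196b-5p, at 58.2 CPM, lay between miR-541-5p and miR-598-3p, and miR-196a-5p, at 6.42 CPM, between miR-31a-5p and miR-381-3p. Each member gives at most 1 count per read whatever its length, so levels can be set side by side, although adaptor ligation differs between sequences and its part was not tested. let-7a-1-3p and let-7c-2-3p, equal in sequence, had the same count in each library, so their reads were not kept to 1 name. Whether a read could also count for both members of a pair that differs at 1 base was not tested. The order from the highest was miR-10b-5p, miR-10a-5p, miR-10b-3p, miR-10a-3p, miR-196b-5p and miR-196a-5p in both groups. The ranges of miR-10b-5p and miR-10a-5p over libraries overlapped in both groups, although miR-10b-5p was the higher within each R-exo library. miR-10a-3p (44.4 ± 34.3 CPM in C-exo and 84.2 ± 17.4 in R-exo, SD, n = 3) and miR-196b-5p (42.2 ± 22.4 and 74.1 ± 24.5) also overlapped, and neither was the higher in every library of a group. Without C-exo replicate 3, both pairs changed places in C-exo, with means of 3299 CPM for miR-10a-5p and 3269 for miR-10b-5p, and of 25.8 for miR-10a-3p and 30.4 for miR-196b-5p.

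**Figure D1:**
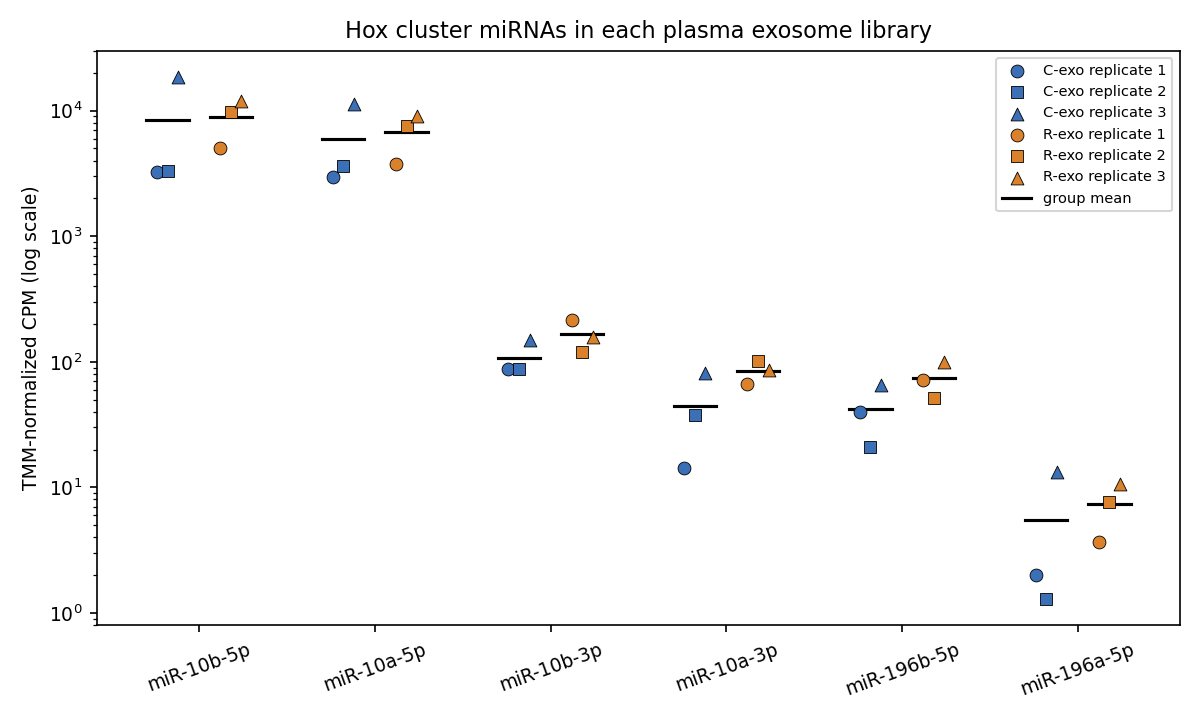
CPM of each member in each library on a log axis, with blue symbols for C-exo, orange for R-exo, a marker shape for each replicate and a black line for the group mean. C-exo replicate 3 (blue triangle) is the highest C-exo library for 6 of 6 members, and the groups overlap for each.

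With all 6 libraries, no member passed edgeR's quasi-likelihood test of R-exo against C-exo, which was run over 404 miRNAs and included all 6 members. With SE values of 0.45 to 0.87 on the log2 scale, this does not show that their levels were alike. None had a fold change over 2 or an unadjusted p under 0.05. That combination, the criterion of the study, called 38 of the 404 (9.41%), 8 higher in R-exo (1.98%) and 30 lower (7.43%). With counts scaled to library size only, 18 of 33 calls were higher in R-exo, or 54.5% against 21.1% with TMM, and with RLE factors 12 of 37, or 32.4%. The median log2 fold change of all tested miRNAs was -0.05 with TMM and 0.10 with library size only. After Benjamini-Hochberg adjustment over the 404, edgeR left no miRNA under 0.05, with 38 at an unadjusted p under 0.05, and neither DESeq2 nor limma-voom left any (50 each at an unadjusted p under 0.05). Each member had a log2 fold change above 0, as did 48.8% of all tested miRNAs.

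The guide strand miR-10b-5p, the most abundant member, had 3232, 3305 and 18599.6 CPM in C-exo replicates 1, 2 and 3, and 5018, 9707 and 11925 CPM in R-exo replicates 1, 2 and 3. C-exo replicate 3 was thus above every R-exo library, while the other C-exo libraries were below every one. The means were 8379 ± 8851 CPM in C-exo and 8883 ± 3527 CPM in R-exo (SD, n = 3), which is a log2 fold change of 0.08 ± 0.71 (SE, adjusted p = 0.96 by edgeR's quasi-likelihood test). It was 1.46 without C-exo replicate 3 (adjusted p = 0.023 by edgeR). Its direction turned in 3 of the other fits that omitted a library, to -0.28 without C-exo replicate 1, -0.24 without C-exo replicate 2 and -0.20 without R-exo replicate 3.

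miR-10a-5p, the guide strand from the Hoxb cluster, showed the same arrangement. It had 2986, 3611 and 11235 CPM in C-exo replicates 1, 2 and 3, and 3768, 7599 and 9016 CPM in R-exo replicates 1, 2 and 3. R-exo replicate 1 exceeded C-exo replicate 2 by little, and C-exo replicate 3 was again above every R-exo library. With 5944 ± 4593 CPM in C-exo and 6794 ± 2715 CPM in R-exo (SD, n = 3), its log2 fold change was 0.19 ± 0.60 (SE, edgeR adjusted p = 0.89). It was 1.06 without C-exo replicate 3, and -0.13, -0.01 and -0.10 in the same 3 fits as for miR-10b-5p.

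With all 6 libraries the passenger strands had larger fitted log2 fold changes than the guide strands, without passing the test. For miR-10b-3p this order was lost in 2 of the fits that omitted a library. It was 0.92 without C-exo replicate 3, below miR-10b-5p (1.46) and miR-10a-5p (1.06), and 0.44 without R-exo replicate 1, below miR-10a-5p (0.55) and about level with miR-10b-5p (0.45). miR-10a-3p had 14.1, 37.5 and 81.6 CPM in C-exo replicates 1, 2 and 3, and 66.2, 101 and 85.4 CPM in R-exo replicates 1, 2 and 3. Here C-exo replicate 3 lay within the R-exo range and the other C-exo libraries below it. The log2 fold change was 0.92 ± 0.61 (SE, unadjusted p = 0.16 and adjusted p = 0.51 by edgeR), and it was 1.71 without C-exo replicate 3 (adjusted p = 0.021 by edgeR) and 0.48 without C-exo replicate 1.

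For miR-10b-3p the CPM was 87.6, 87.7 and 148 in C-exo replicates 1, 2 and 3, and 216, 120.2 and 159 in R-exo replicates 1, 2 and 3. Of the members it varied least within C-exo, with an SD of 32.2% of the mean against 53.2% to 122% for the others and a median of 55.3% over all tested miRNAs. The means of 108 ± 34.7 and 165 ± 48.4 CPM (SD, n = 3) gave a log2 fold change of 0.62 ± 0.45 (SE, unadjusted p = 0.20 and adjusted p = 0.51 by edgeR). C-exo replicate 3 exceeded R-exo replicate 2 only.

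miR-196b-5p, the Hoxa member that shares its seed with miR-196a-5p, was counted 178, 164 and 462 times in C-exo replicates 1, 2 and 3, and 576, 358 and 758 times in R-exo replicates 1, 2 and 3. In CPM these were 39.9, 21.0 and 65.7 against 70.9, 51.4 and 100.0. The groups overlapped through C-exo replicate 3 and R-exo replicate 2. The log2 fold change was 0.81 ± 0.52 (SE, unadjusted p = 0.15 and adjusted p = 0.51 by edgeR), and it ranged from 0.52 without R-exo replicate 3 to 1.30 without C-exo replicate 3.

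miR-196a-5p, from the Hoxc cluster, was the rarest member, with 9, 10 and 93 counts in C-exo replicates 1, 2 and 3, and 30, 53 and 81 counts in R-exo replicates 1, 2 and 3. Relative to the plain library total (RPM), C-exo replicates 1 and 2 had 1.64 (Wilson 95% interval 0.863 to 3.12) and 1.42 (0.773 to 2.62). C-exo replicate 3 had 12.3 RPM (10.1 to 15.1), above the 4.27 RPM (2.99 to 6.10) of R-exo replicate 1 beyond counting error. Its log2 fold change of 0.40 ± 0.87 (SE, edgeR adjusted p = 0.84) had the largest error of the members. It was 2.18 without C-exo replicate 3 and -0.016 without C-exo replicate 2. With 3 libraries against 3, the exact two-sided permutation test of CPM cannot give a p below 0.1, and it gave 0.2 for miR-10a-3p, miR-10b-3p and miR-196b-5p, 0.8 for miR-10a-5p and miR-196a-5p and 1 for miR-10b-5p.

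Without C-exo replicate 3, 5 of the 6 members met the criterion of the study, higher in R-exo, against 23.7% of the 422 tested miRNAs. Each R-exo library was above both C-exo replicates 1 and 2 for 6 of 6 members, as for 31.7% of all tested miRNAs, a view taken after the values were seen. An adjusted p under 0.05 was reached by 3 of 6, against 17.3% higher in R-exo and 14% lower. These were miR-196a-5p with a log2 fold change of 2.18 ± 0.71 (SE, adjusted p = 0.033 by edgeR), miR-10a-3p with 1.71 ± 0.50 (adjusted p = 0.021) and miR-10b-5p with 1.46 ± 0.44 (adjusted p = 0.023). miR-196b-5p (1.30, adjusted p = 0.053), miR-10a-5p (1.06, adjusted p = 0.074) and miR-10b-3p (0.92, adjusted p = 0.11) did not pass that edgeR adjustment. Since 31.3% of all miRNAs passed in this fit against 0% with all 6 libraries, the members shared this dependence on 1 control library with many other miRNAs. C-exo replicate 3 was the highest of all 6 libraries for 3 of 6 members and for 17.8% of tested miRNAs, and the highest of C-exo for 6 of 6 members and for 44.8%. It was singled out on these same data, and leaving it out lowers the C-exo mean of each member. The adjusted p-values without it therefore describe the dependence on that library and are not a separate test of RIPC.

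**Figure D2:**
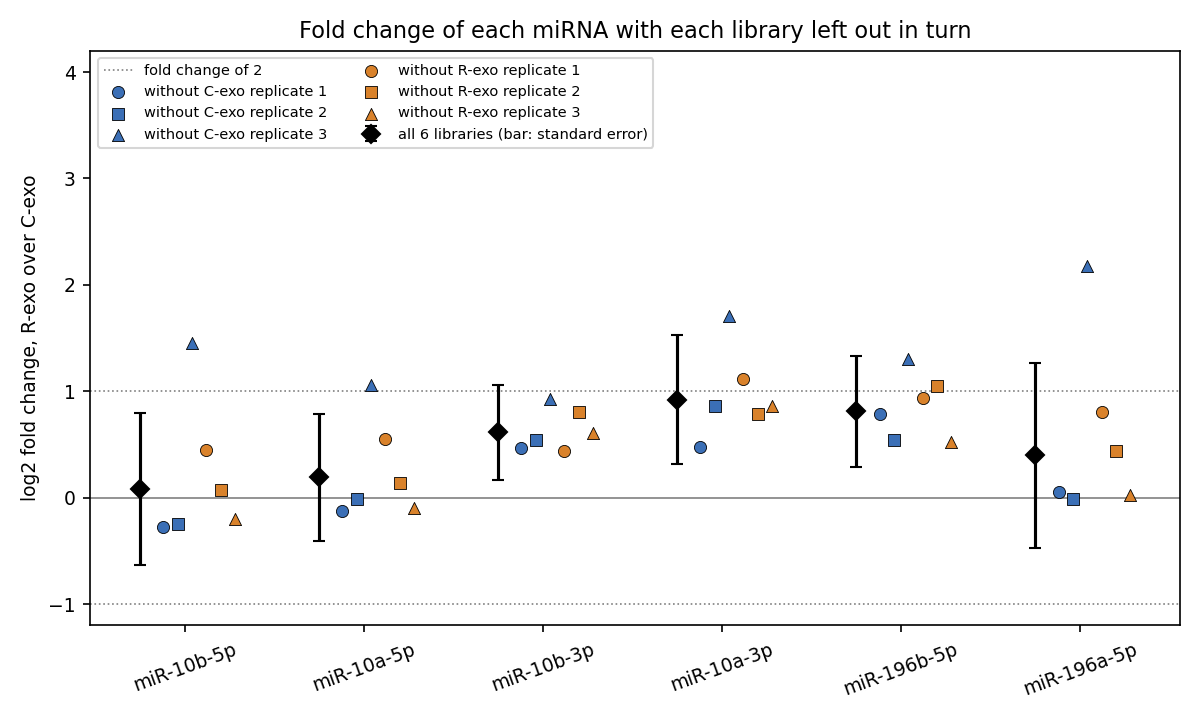
Log2 fold change of R-exo over C-exo (y axis) for each member, from all 6 libraries (black diamond, bar: SE) and from the fits that omit a library (coloured symbols). Leaving out C-exo replicate 3 (blue triangle) gives the highest value for each member, from 0.92 to 2.18, while the other fits lie between -0.28 and 1.12.

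**Figure D3:**
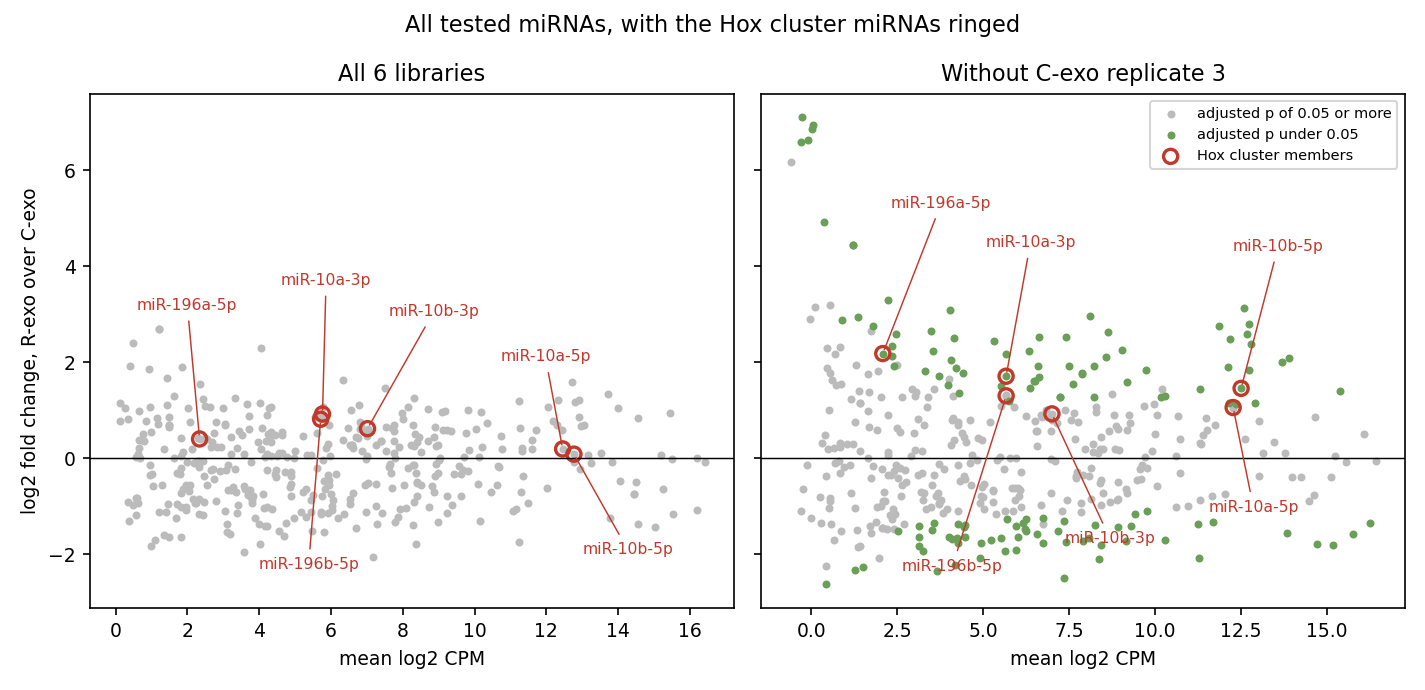
Log2 fold change against mean log2 CPM for all tested miRNAs with all 6 libraries (left, 404 miRNAs) and without C-exo replicate 3 (right, 422 miRNAs), with members ringed in red and miRNAs at an adjusted p under 0.05 in green. No miRNA is green on the left and 132 are on the right, 3 of them members.

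Ratios within a library do not depend on the scaling between libraries. miR-10b-5p made up 52.0%, 47.8% and 62.3% of the miR-10a-5p and miR-10b-5p reads in C-exo replicates 1, 2 and 3, and 57.1%, 56.1% and 56.9% in R-exo replicates 1, 2 and 3. It exceeded miR-10a-5p in 5 of 6 libraries, C-exo replicate 2 being the exception. The log2 ratio of miR-10a-5p to miR-10b-5p was -0.24 ± 0.44 in C-exo and -0.39 ± 0.03 in R-exo (SD, n = 3), a difference of -0.15 (exact two-sided permutation p = 0.7). It was -0.40 without C-exo replicate 3 (exact permutation p = 0.1, the smallest that 2 libraries against 3 allow), -0.09 without C-exo replicate 1, and turned to 0.03 without C-exo replicate 2. Between these guide strands the proportion was nearly constant in R-exo, whereas C-exo held both its extremes.

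The passenger strand of miR-10a made up 0.471%, 1.03% and 0.721% of the reads of both its strands in C-exo replicates 1, 2 and 3, and 1.73%, 1.31% and 0.938% in R-exo replicates 1, 2 and 3. Only R-exo replicate 3 was within the C-exo range, and its Wilson 95% interval of 0.869% to 1.01% overlapped that of C-exo replicate 2, 0.917% to 1.15%. The log2 ratio of miR-10a-5p to miR-10a-3p was 7.13 ± 0.56 in C-exo and 6.26 ± 0.45 in R-exo (SD, n = 3), a difference of -0.87, or -0.89 without C-exo replicate 3, that was not distinguished from the spread (exact two-sided permutation p = 0.2, adjusted p = 0.8 over the 4 ratios). In the fits that omitted a library the difference stayed between -1.15 and -0.58.

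The passenger strand of miR-10b made up 2.64%, 2.58% and 0.788% of the reads of its strands in C-exo replicates 1, 2 and 3, and 4.13%, 1.22% and 1.31% in R-exo replicates 1, 2 and 3. It was lowest in C-exo replicate 3, where the guide strand was highest. The difference in log2 ratio was -0.10 (exact two-sided permutation p = 1), turned to 0.48 without C-exo replicate 3 or R-exo replicate 1, and lay between -0.42 and -0.37 when any of the other libraries was left out. miR-10b-3p exceeded miR-10a-3p in 6 of 6 libraries, by 1.19-fold to 6.21-fold, a ratio added after the values were seen.

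miR-196b-5p exceeded miR-196a-5p in 6 of 6 libraries. It was 19.8, 16.4 and 4.97 times as frequent in C-exo replicates 1, 2 and 3, and 19.2, 6.75 and 9.36 times in R-exo replicates 1, 2 and 3. The share of miR-196a-5p among reads of both was 16.8% in C-exo replicate 3 (Wilson 95% interval 13.9% to 20.1%) and 4.81% in C-exo replicate 1 (2.55% to 8.89%), intervals that cover counting error only, the latter on 9 counts of miR-196a-5p. The difference of the log2 ratio of miR-196b-5p to miR-196a-5p between groups was -0.10 (exact two-sided permutation p = 1). Its size and sign depended on single libraries, since it was -0.70 without C-exo replicate 3 and -0.52 without R-exo replicate 1, but 0.26 without C-exo replicate 1, 0.23 without R-exo replicate 2 and 0.13 without C-exo replicate 2. With R-exo replicate 3 left out it was -0.010.

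**Figure D4:**
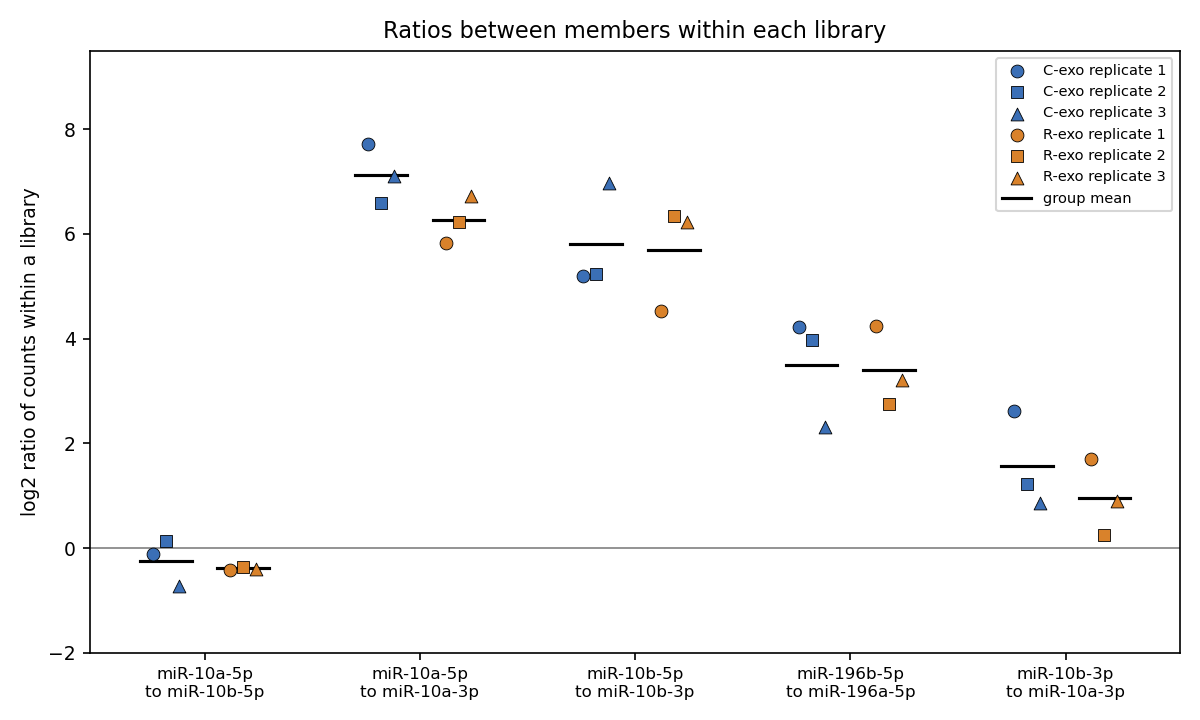
Log2 ratio of counts (y axis) for pairs of members within each library, with blue symbols for C-exo, orange for R-exo, a marker shape for each replicate and a black line for the group mean. The 5p strand of miR-10a exceeds its 3p strand by 56.9-fold to 211-fold, and the ratio of miR-10a-5p to miR-10b-5p is nearly the same in the 3 R-exo libraries.

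Among the members, log2 CPM over the 6 libraries was most alike for miR-10a-5p and miR-10b-5p (Pearson's r = 0.984) and for miR-10b-5p and miR-196a-5p (r = 0.977), and least for miR-10a-5p and miR-10b-3p (r = 0.383). These are descriptions over 6 libraries that share the deviation of C-exo replicate 3. Of 284 other miRNAs with at least 10 CPM, miR-365-3p (r = 0.978, rho = 0.943), let-7b-3p (r = 0.973) and let-7c-2-3p (r = 0.967) were most like miR-10b-5p. let-7a-1-3p, which has the same mature sequence in RefSeq as let-7c-2-3p, had the same count in each library, so that this value belongs to both names. The r of the 3 was 0.992, 0.974 and 0.942 without the libraries farthest from the median, C-exo replicates 1 and 3. Most like miR-196b-5p were miR-466c-5p (r = 0.984), miR-155-5p (r = 0.948) and miR-223-5p (r = 0.947), with 0.891, 0.833 and 0.877 without C-exo replicate 2 and R-exo replicate 3.

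Other products of Hox cluster stem-loops gave no call with all 6 libraries. Of 5 listed, miR-196a-3p had 0 counts in each library, and of the 4 tested, 2 had a log2 fold change above 0, with a median of -0.07, or -0.25 without C-exo replicate 3. miR-196c-5p, which carries the same seed as the members of its family and differs from miR-196a-5p at A12G, had 5, 2 and 22 counts in C-exo replicates 1, 2 and 3, and 12, 10 and 50 counts in R-exo replicates 1, 2 and 3. As for the members, C-exo replicate 3 was its highest C-exo library. Its log2 fold change was 1.06 (unadjusted p = 0.30 by edgeR), and without that library it met the criterion at 2.32 (unadjusted p = 0.043 and adjusted p = 0.099 by edgeR). miR-615, which lies within the spans of Hoxc5 and Hoxc6, had 135, 96 and 47 counts in C-exo against 55, 52 and 61 in R-exo, and a log2 fold change of -1.14 ± 0.60 (SE, unadjusted p = 0.091 and adjusted p = 0.47 by edgeR). Its count was lowest in C-exo replicate 3, and without that library the log2 fold change was -1.50 (edgeR adjusted p = 0.036).

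miR-99 and miR-100 are the relatives of miR-10 by sequence that lie outside the Hox clusters. miR-100-5p (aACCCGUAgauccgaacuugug, seed in capitals) is shown because, aligned 1 base in, it differs from miR-10a-5p at C3A, U6C and U18C, so that its seed is another. Of 6 listed, 4 were tested and 0 called, and 1 had a log2 fold change above 0, with a median of -0.42, or -0.49 without C-exo replicate 3. miR-99a-5p, more abundant than any member, had 29412 ± 6192 CPM in C-exo and 17514 ± 2808 CPM in R-exo (SD, n = 3) without overlap, as had 7.92% of tested miRNAs in that direction against 4.95% in the other, where no member stood. It had a log2 fold change of -0.75 ± 0.38 (SE, edgeR adjusted p = 0.47), or -0.90 without C-exo replicate 3 (edgeR adjusted p = 0.054), beside -0.27 for miR-99b-5p and 0.22 for miR-100-5p.

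Levels of miRNAs typical of other sources varied over the same libraries, and their part in the results for the members was not tested. All 20 such miRNAs were counted in every library. The summed CPM of the leukocyte and platelet list was 5001, 3553 and 21387 in C-exo replicates 1, 2 and 3 and 11449 to 26861 in R-exo. Its most frequent miRNA was miR-142-5p, with 10904, 18126 and 131824 counts in C-exo and 70062 to 171821 in R-exo, so that C-exo replicate 3 lay with R-exo for this miRNA. That was not so for miR-142-3p, with 2456, 2350 and 2525 counts in C-exo and 3712 to 7837 in R-exo. The endothelial list, miR-126a-3p and miR-126a-5p, had 4723, 7337 and 16773 in C-exo and 20587 to 30334 in R-exo. Nearly all of this was miR-126a-3p, whereas miR-126a-5p, with 405, 1479 and 6245 counts in C-exo and 2387 to 5224 in R-exo, was highest in C-exo replicate 3. The smooth muscle list had 11012, 43198 and 55682 in C-exo and 42834 to 88064 in R-exo, the striated muscle list 2151, 3188 and 9819 against 1801 to 5970, the liver list 79587 to 108023 against 75204 to 80653, and the red cell list 198092, 92404 and 69279.5 against 44539.6 to 74966. The red cell sum was mostly miR-486, at 116723 ± 69675 CPM in C-exo and 55507 ± 13701 CPM in R-exo (SD, n = 3), a log2 fold change of -1.07 (unadjusted p = 0.052 and adjusted p = 0.47 by edgeR), whereas the other 3 of that list had log2 fold changes above 0. Of these lists, 1 of 2 endothelial miRNAs and 2 of 4 red cell miRNAs (miR-144-3p and miR-144-5p) met the fold change and p criterion higher in R-exo, and none of the other lists did in either direction. Their median log2 fold changes were 0.89 (endothelium), 0.72 (red cells), 0.64 (smooth muscle), 0.45 (leukocytes and platelets), 0.01 (striated muscle) and -0.33 (liver), beside -0.05 over all tested miRNAs and 0.51 for the members. Without C-exo replicate 3 these medians were 1.96, 0.96, 0.79, 0.70, 0.95 and -0.23 in the same order, beside 0.01 over all tested miRNAs and 1.38 for the members. An adjusted p under 0.05 was then reached, higher in R-exo, by both endothelial miRNAs and by 1 each of the red cell, smooth muscle, leukocyte and platelet, and striated muscle lists, and lower in R-exo by miR-486 (log2 fold change -1.35, edgeR adjusted p = 0.016), against the 17.3% and 14% of all miRNAs given above. The striated muscle one was miR-208b-3p, with 8 and 8 counts in C-exo replicates 1 and 2 and 184, 23 and 14 in R-exo replicates 1, 2 and 3. In that fit, 4 of the 6 on its list had a log2 fold change above 0, and miR-133a-3p (-0.44) and miR-133b-3p (-0.36) were below 0.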

How the data were processed

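Small RNA libraries of 3 C-exo and 3 R-exo samples were sequenced by Illumina chemistry. Raw counts were deposited by the authors, as whole-number reads on each of 763 mature miRNAs, not normalized and with replicates kept apart. The submitters' processing notes name bcl2fastq, BWA and rn6. Adaptor trimming, the miRNA annotation and the treatment of mismatches and of reads matching several miRNAs are not given in the sources used here, which matters for pairs that differ at 1 base. Libraries were grouped by their labels, and all 6 columns were used. No pair of libraries agreed within sampling noise.

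The tests used edgeR 4.0.16 in R 4.3.3. Low counts were filtered with filterByExpr (by group, count of at least 10, total of at least 15), which kept 404 of the 598 miRNAs seen in any library. After TMM scaling, a quasi-likelihood model with a single term for RIPC was fitted to all libraries, and p-values were adjusted over the 404 miRNAs by Benjamini-Hochberg. SE values came from the fold change and its F statistic. Calls were counted by the criterion of the study (fold change over 2, unadjusted p under 0.05) and, separately, by an adjusted p under 0.05. Log2 CPM used a prior count of 2, and ratios 0.5 added to both counts. The procedure was tested on simulated data. DESeq2 1.42.0 and limma-voom (limma 3.58.1) were alternatives, as were RLE, library size and upper quartile scaling, no filter or 10 counts in every library, a replicate block, a pseudocount of 2 in ratios and leaving out each library. Figures used Python 3.11.15 and matplotlib 3.10.9.

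The named miRNAs were the members, the lists (other Hox cluster products, miR-99 and miR-100 relatives, markers of red cells, leukocytes and platelets, endothelium, liver, striated and smooth muscle), the 3 miRNAs most alike to the highest miR-10 and miR-196 member and the neighbours in level of each 5p member. The members and lists were chosen with earlier results of these data known.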

Additional observations from a re-analysis of the deposited data

How the results depend on the processing

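Over the reported fit and the 8 alternatives with all 6 libraries, 0 members were called and each tested member had a log2 fold change above 0, with ranges of 0.19 to 0.36 for miR-10a-5p, 0.91 to 1.24 for miR-10a-3p, 0.08 to 0.52 for miR-10b-5p, 0.59 to 0.80 for miR-10b-3p, 0.40 to 0.97 for miR-196a-5p and 0.80 to 1.01 for miR-196b-5p. miR-196a-5p was not tested when at least 10 counts in every library were required. Over all miRNAs, 63 met the fold change and p criterion without the filter on low counts, against 38, and of those calls 27 were higher in R-exo, against 8. That number was 18 with library size only, 17 with DESeq2 and 27 with limma-voom.

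A paired fit (replicate block by number) again called 38 miRNAs, of which 25 were higher in R-exo and 0 were members. The numbers gave no clear sign of pairing. Deviations from the group means correlated at 0.33, -0.28 and 0.28 for numbers 1, 2 and 3, and only 2 of 6 libraries correlated best with their own number. With 3 libraries in each group, these values cannot exclude that the numbers paired the libraries. The block left the group differences of the within-library ratios as they were, which is fixed in advance when each number occurs in both groups. With a pseudocount of 2, the difference for miR-196b-5p to miR-196a-5p was -0.010.

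With each library left out in turn, 15 to 182 miRNAs met the criterion, 3 to 100 of them higher in R-exo, 0 to 132 had an adjusted p under 0.05, and 0 to 5 members met the criterion and 0 to 3 had an adjusted p under 0.05 (edgeR's quasi-likelihood test). The upper ends came without C-exo replicate 3. Member log2 fold changes ranged from -0.13 to 1.06 (miR-10a-5p), 0.48 to 1.71 (miR-10a-3p), -0.28 to 1.46 (miR-10b-5p), 0.44 to 0.92 (miR-10b-3p), -0.016 to 2.18 (miR-196a-5p) and 0.52 to 1.30 (miR-196b-5p). The cause was not tested. Depth limits miR-196a-5p most, at 9 and 10 counts in C-exo replicates 1 and 2.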
